A study of Hylyphantes graminicola with 5 samples.

Results

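The Corazonin-rich cells described here come from the brain of *Hylyphantes graminicola*, a small spider that hangs its web above the ground. They were the kept cells with more than 100 unique molecular identifiers (UMIs, each standing for 1 captured transcript) of the *Corazonin* precursor gene (evm.TU.CTG-40.5). There were 64 of them among 31147 kept cells, or 0.205%. Kept cells had between 500 and 60000 UMIs, at least 200 genes and under 40% of UMIs from mitochondrial genes. *Corazonin* itself chose the cells, so its level in them is a description and no result.

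The cells came from 5 droplet libraries, 3 from females and 2 from males. Each library pooled the brains of 35 to 40 wild-collected adults of mixed age, with no treatment and no genotype given in the labels, so a library is 1 sample and its cells are not replicates. Total UMIs in the libraries ran from 12269605 to 35943668, and no barcode of a Corazonin-rich cell recurred among the kept cells of another library. Between 5 and 15 kept barcodes were shared by any 2 libraries.

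Corazonin is a short secreted peptide of arthropods, related in evolution to adipokinetic hormone and to the gonadotropin-releasing hormone family. It is cut from a larger precursor, packed into dense-core vesicles and released by a small number of neurosecretory cells. In insects it acts in responses to stress and food shortage, in moulting and in colour change of the cuticle. Crustacean cardioactive peptide (CCAP), which appears repeatedly below, drives heart beat in crustaceans and shedding of the old cuticle in insects. In the numbering of genes on the contig, *Corazonin* stands between *GnRH* (evm.TU.CTG-40.4) and *CCAP_1* (evm.TU.CTG-40.6).

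The Corazonin-rich cells numbered 13, 7 and 25 in female 1, female 2 and female 3, and 11 and 8 in male 1 and male 2. Their *Corazonin* UMIs ran from 103 to 1992 per cell with a median of 212.5 and quartiles of 134.5 and 417.75. This was a median of 3.16% of all UMIs of the cell and at most 12.5%. The level within the set therefore spread over a wide range, and all 5 cells above 1000 UMIs were female. Just inside the limit, 8 cells had at most 110 UMIs, and just outside it 4 cells had 91 to 100. No gap stood at the limit, since 33 kept cells had 51 to 100 UMIs against 31 above 100 and up to 200. The 64 cells still held most *Corazonin* transcripts of every library, at 89.5%, 84.1% and 89.0% in the females and 77.1% and 72.015% in the males.

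**Figure D1:**
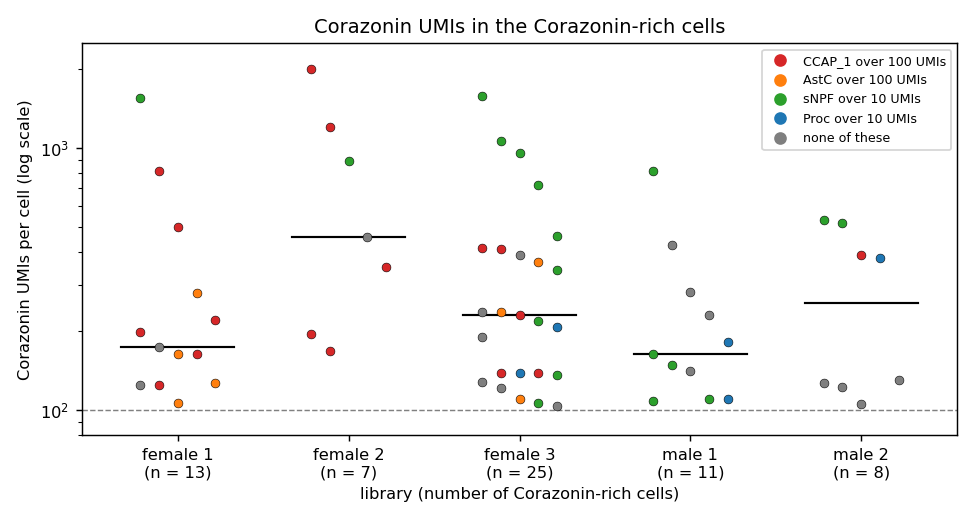
*Corazonin* UMIs of each Corazonin-rich cell (points, log axis) by library, coloured by the other precursor the cell carried, with the median as a line and the limit of 100 UMIs dashed. Medians were 174, 457 and 229 in females and 163 and 254.5 in males, and cells near the limit occurred in each library except female 2, whose lowest cell had 168.

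The cells were checked against markers. All 64 cells had at least 3 UMIs of the neuron list (*brp*, *nSyb*, *elav* and *Syt1*, genes of the active zone, vesicle fusion, neuronal RNA binding and calcium sensing), a mark near saturation, since 99.5% or more of other peptide-rich cells in each library had a UMI of it. The summed level of that list, 3254 to 9512 CPM (UMIs of a gene scaled to a common library total), was nevertheless lower in each library than in other peptide-rich cells (5699 to 12180 CPM) and in all other kept cells (6779 to 13561 CPM). Most of the sum was *Syt1* (3803 of 4927 CPM in female 1), and the totals included other precursors. With all precursors left out of the totals, *elav* was higher than in other peptide-rich cells in 3 of 5 libraries. None of the 64 cells had 3 or more UMIs of the 6 glia genes while 2 did of the 5 hemocyte genes and 27 of the 6 fat body genes, of which 53 cells had at least 1 UMI. The summed glia level was 0 to 34.1 CPM in the Corazonin-rich cells against 59.9 to 229 CPM in all other kept cells. The defining glial gene *moody* was at 0. The 5 hemocyte genes summed to 8.88 to 120 CPM against 40.4 to 109 CPM, and the 6 fat body genes to 205 to 368 CPM against 299.9 to 1040 CPM. Of 314 cells with at least 3 UMIs of hemocyte genes and none of the neuron list, none had a *Corazonin* UMI. The share of such cells with one could be at most 0.955%. Among 159 cells gated in the same way on glial genes 1 had a *Corazonin* UMI, and the median depths of these sets were 2325 and 2000 UMIs. This gate drops cells that took up neuron-list RNA, so these counts cannot bound the free RNA of neurons. The Corazonin-rich cells were deep, with per-library median depths of 5648 to 13336 UMIs against 1925 to 3096.5 over all kept cells. Their median mitochondrial share, 7.67% to 14.9%, was below that of other peptide-rich cells in each library (10.97% to 22.3%). The part of depth and of this share in the results below was not tested beyond the alternatives named there. Across the 64 cells the log2 *Corazonin* count and the log2 count of all other UMIs had a Pearson correlation of 0.60, given as a description since both counts share the depth of the cell. Doublet calls fell on 4 of them (6.25%, against 8.12% of kept cells, a share that the assumed doublet rate sets).

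Other neuropeptide precursors were found in nearly every Corazonin-rich cell. Of the 64, 61 had more than 10 UMIs of at least 1 of the other 70 listed precursors, 41 had more than 100, and the median cell had 4 others over 10. The share of equally deep kept cells that passes the same limits is not given here, so these counts are descriptions. In 29 cells another precursor outnumbered *Corazonin*. The 3 cells without a companion over 10 UMIs came from female 1 and female 3. Over the whole set 33 precursors exceeded 10 UMIs somewhere, while 19 had no UMI in any of the 64 cells.

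By the number of cells over 10 UMIs the leading companions were *Calcitonin_3*, *CCAP_3*, *AstC*, *sNPF* and *CCAP_1*, a calcitonin-type, a CCAP-type, an allatostatin C, a short neuropeptide F and another CCAP-type precursor. *Calcitonin_3* (evm.TU.CTG-571.10) exceeded 10 UMIs in 27 cells (42.2%, exact 95% interval 29.9 to 55.2) against 3.19% of the 6857 other peptide-rich cells, which are kept cells with more than 100 UMIs of some other precursor and at most 100 of *Corazonin*. *CCAP_3* did so in 25 cells (39.1%, 27.1 to 52.1) against 22.2%. *AstC*, whose insect product inhibits juvenile hormone synthesis, did so in 22 cells (34.4%, 22.9 to 47.3) against 2.26%. *CCAP_1* did so in 17 cells (26.6%, 16.3 to 39.1) against 0.190%. *AstCC*, a related allatostatin, did so in 7 cells (10.9%, 4.51 to 21.2) against 0.496%.

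Further companions lay above, near or below their shares in the other peptide-rich cells, which were themselves chosen by these precursors. The myoinhibitory precursors *Mip* and *AstB* exceeded 10 UMIs in 23.4% and 21.9% against 10.3% and 5.05%, the FMRFamide precursor *FMRFa_4* in 11 cells (17.19%) against 7.29% and *AstCCC* in 9.38% against 3.14%. The short neuropeptide F precursor *sNPF* (evm.TU.CTG-1084.3) exceeded 10 UMIs in 20 cells (31.3%, 20.2 to 44.1) against 29.7%. Proctolin, a myotropic peptide encoded by *Proc*, did so in 13 cells (20.3%, 11.3 to 32.2) against 29.7%, and the diuretic hormone precursor *DH31_1* also in 13 against 25.4%. *AT*, the allatotropin precursor, did so in 7 (10.9%) against 20.1%. These intervals cover counting error only and treat cells of 1 pool as independent. No hemocyte- or glia-gated cell had over 10 UMIs of *Calcitonin_3*, *CCAP_1*, *CCAP_3*, *AstC* or *sNPF*, but 3 did of *AT* and 2 of *Proc*, and a UMI of these was found in 22.9% to 27.7% of gated cells. *CCAP_2* and *CCAP_3*, *Mip* and *AstB*, and the *RYa* genes may be near copies whose reads the counting could split, so their separate counts are uncertain.

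**Figure D2:**
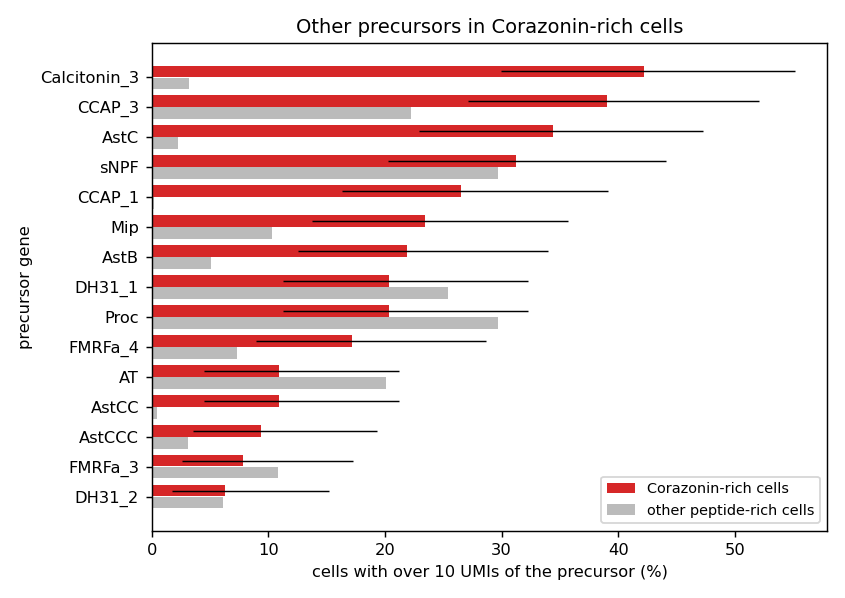
Percentage of Corazonin-rich cells (red, n = 64, exact 95% intervals) and of other peptide-rich cells (grey, n = 6857) with more than 10 UMIs of each of 15 precursors, those most often over 10 UMIs in Corazonin-rich cells. *Calcitonin_3*, *AstC* and *CCAP_1* stand far above the grey bars, while *sNPF* lies beside its own and *DH31_1* and *Proc* lie below theirs.

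The companions are described here in blocks, and no expectation under free mixing was computed. The blocks below were drawn after the values were seen and are descriptions. The first block held the 17 cells with more than 100 *CCAP_1* UMIs, 6, 5 and 5 from the 3 female libraries and 0 and 1 from the males. In them *CCAP_1* ran from 421 to 9295 UMIs with a median of 3046, against at most 7 UMIs in the other 47 cells. Of the 17, 16 also had over 100 UMIs of *CCAP_3*, up to 1008. *Calcitonin_3* was present in each at 7 UMIs or more, *AstC* at 5 or more, and *sNPF* reached at most 11. Their *Corazonin* median was 229 UMIs, and *CCAP_1* exceeded *Corazonin* in all of them but 1 cell of female 2, which had 421 UMIs of the former and 1196 of the latter.

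A second block had *AstC* without *CCAP_1*. Its 7 cells, 4 from female 1 and 3 from female 3, had 169 to 715 *AstC* UMIs, 24 to 136 *Calcitonin_3* UMIs, no *CCAP_3* UMI and at most 2 *CCAP_1* UMIs. In 6 of them *AstCC* was present at 9 to 165 UMIs. The remaining cell, the deepest of all 64 with 40717 UMIs, had no *AstCC* and held 11295 UMIs of *AT*, of the 12320 found in the whole set.

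The *sNPF* block held the 18 cells outside the first 2 with more than 10 UMIs of that gene, and its *Corazonin* median of 490 UMIs was the highest of the 3 blocks. Its cells were also the deepest, with a median of 13098 UMIs against 8827 in the *CCAP_1* and 4500 in the *AstC* block. As a share of the UMIs of the cell, the *Corazonin* medians were 3.75%, 2.88% and 2.80% in that order. The *sNPF* block drew on all 5 libraries, with 1, 1 and 9 female cells and 5 and 2 male cells. *AstC* reached at most 1 UMI there and *Calcitonin_3* at most 1. Part of this follows from how the block was drawn, since cells with over 100 *CCAP_1* or *AstC* UMIs were left out of it. In each of the first 2 blocks 1 cell had over 10 *sNPF* UMIs, at 11 and 77. The FMRFamide precursor *FMRFa_4* exceeded 10 UMIs in 9 of the 18. *Proc* joined *sNPF* in 6, which had 16 to 1046 *Proc* UMIs and 342 to 1574 *Corazonin* UMIs. Outside the first 2 blocks another 5 cells had *Proc* over 10 UMIs without *sNPF*.

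Smaller patterns remained among the other cells. Outside the first 2 blocks, *AstCCC* and *Calcitonin_3* both exceeded 10 UMIs in 3 cells, all male, together with *Mip* (22 to 119 UMIs) and *AstB* (23 to 76 UMIs), the myoinhibitory peptide precursors. *Calcitonin_3* exceeded 1000 UMIs in 3 of the 64 cells, 2 from female 2 that also had *CCAP_1* and 1 from male 1 that had 12921 *Calcitonin_3* UMIs, 3325 *CCAP_3* UMIs and no *CCAP_1*. Only 6 kept cells in all passed 1000 UMIs of that gene. The remaining 15 cells, 9 female and 6 male, fell under neither of the first 2 blocks, *sNPF*, *Proc* nor *AstCCC* with *Calcitonin_3*, and the cell of 12921 UMIs was among them.

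**Figure D3:**
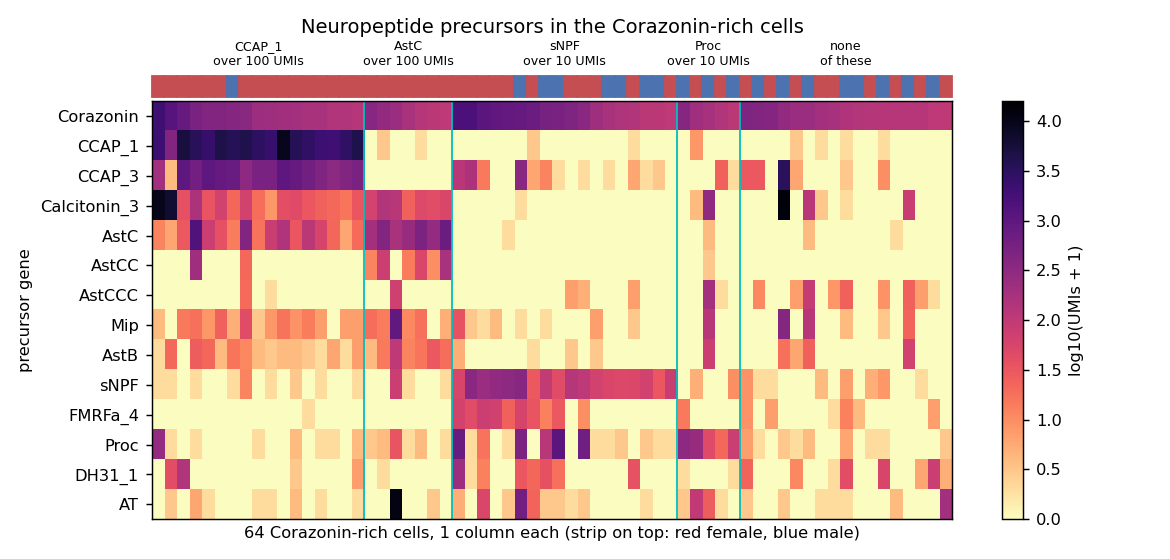
Each column is 1 of the 64 Corazonin-rich cells and each row a precursor, coloured by log10(UMIs + 1), with the sex of the library in the strip on top. The columns are ordered by companion, and the first 2 blocks share *Calcitonin_3* and *AstC*, which are nearly absent from the *sNPF* block.

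The overlap was also counted from the side of *CCAP_1*. Only 26 kept cells had more than 100 *CCAP_1* UMIs, and all 26 had *Corazonin* UMIs, from 4 to 1992 with a median of 165.5. Of these, 17 were Corazonin-rich and the 9 others had 4 to 89. The Corazonin-rich cells held 89.4% of all *CCAP_1* UMIs and 47.8% of all *Calcitonin_3* UMIs, but 16.2% of *AstCC*, 9.54% of *AstC*, 3.20% of *CCAP_3* and 0.735% of *sNPF* UMIs. Of their 30802 *Calcitonin_3* UMIs, however, 3 cells held 12921, 9864 and 6428. The converse did not hold, since 47 of the 64 Corazonin-rich cells lacked *CCAP_1* at that level. None of the 17 was called a doublet, whereas 3 of the 18 cells of the *sNPF* block were.

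The 26 cells were 8, 8 and 8 in the female libraries and 1 and 1 in the male ones. As a share of kept cells this was 0.243%, 0.168% and 0.104% in females and 0.0138% and 0.0123% in males, and the groups did not overlap. This share was looked at after the cells had been seen and was given no test. The male 1 cell had 127 *CCAP_1* UMIs, 4 *Corazonin* UMIs and no *CCAP_3* UMI, whereas the male 2 cell had 3691, 390 and 758.

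**Figure D4:**
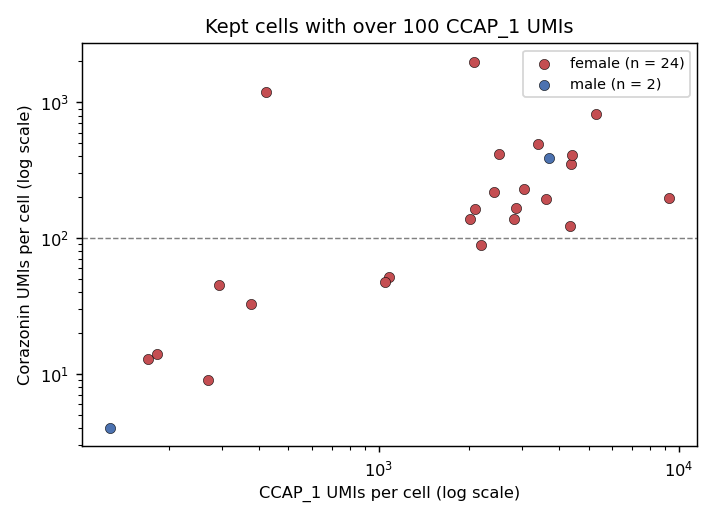
*Corazonin* against *CCAP_1* UMIs (both axes log) in each of the 26 kept cells with more than 100 *CCAP_1* UMIs, red for female and blue for male, with the limit of 100 *Corazonin* UMIs dashed. The 17 cells above the line had 421 to 9295 *CCAP_1* UMIs, and the cells below it had 4 to 89 *Corazonin* UMIs.

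The cells were also compared in genes other than precursors. Kept cells were joined to their 20 nearest neighbours on 40 principal components of 2000 variable genes from which all precursors had been left out. A Corazonin-rich cell had a median of 0.5 other Corazonin-rich cells among its 20 neighbours, and 32 of the 64 had none. These values are to be read against the share of Corazonin-rich cells among kept cells, 0.205%. The cells of the *CCAP_1* block had a median of 3 and those of the *AstC* block a median of 5, whereas the remaining 40, the *sNPF* block among them, had a median of 0. In a division of all kept cells into 41 clusters the 64 cells fell into 17, with 19 of them in 1 cluster of 369 cells (5.15% of it). That cluster held 10 of the 17 *CCAP_1* cells and all 7 *AstC* cells, so this division did not separate these blocks. The remaining 40 fell into 16 clusters, 13 of them in 1 cluster of 1669 cells, and none of these clusters is named here.

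The next comparison asked how the Corazonin-rich cells differed from other peptide-rich cells in genes that neither set was chosen by. UMIs were summed per library and cell set with all 71 precursors left out, and the sums of the same library were paired. Of 8245 genes tested with edgeR, 202 passed a Benjamini-Hochberg adjusted p of 0.05 (2.45%), 59 higher (0.716%) and 143 lower (1.73%) in the Corazonin-rich cells. The median over all genes was -0.12 on the log2 scale, so the changes below are to be read against that value. With DESeq2 the calls were 40 higher and 51 lower, a larger share of higher ones (44.0% against 29.2%), and with the library left out of the edgeR model 25 genes were called. The sums of Corazonin-rich cells held only 54586 to 210477 UMIs per library. Each library is a separate sample in the labels. The edgeR p-values of this comparison rest mainly on a spread pooled over genes, so a gene's own spread between the 5 pools hardly enters them. The per-library values given below show that spread.

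The homeobox gene *Ubx_S1* (evm.TU.CTG-1080.6), whose *Drosophila* relative sets the identity of body segments, showed the largest rise among named genes. It stood at 245, 147 and 124 CPM in female 1, 2 and 3 and at 32.7 and 48.1 CPM in male 1 and 2. Other peptide-rich cells of the same libraries had 35.1, 10.1, 13.1, 12.1 and 7.29 CPM. Each library was higher, by a log2 fold change of 2.81 (SE 0.33, edgeR adjusted p = 8.58e-15). These levels rest on 60 UMIs, of which 3 came from each male library.

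*Ubx_S1* followed the blocks. It had UMIs in 14 of the 17 *CCAP_1* cells and in 6 of the 7 *AstC* cells, but in 3 of the other 40. In other peptide-rich cells it was found in 4.19%. Without the *CCAP_1* cells, which also leaves female 2 with too few cells to enter the fit, the fold change was 2.06 with an edgeR adjusted p of 0.000395, and without female 2 alone it was 2.68. Of the 27 UMIs in the 47 cells outside the *CCAP_1* block, 23 were in the *AstC* block and 4 in the other 40 cells. These are 342 and 10.3 CPM, with other precursors in the totals, so the rise that remained rests mainly on the *AstC* block. The comparison between blocks was made after the values were seen and has no test.

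*CEBPA_S3* (evm.TU.CTG-806.1), named after a basic leucine zipper transcription factor, came next. It stood at 1150.4, 476 and 456 CPM in females and 87.3 and 240.3 CPM in males, against 86.8, 91.3, 81.2, 29.7 and 32.9 CPM in the other peptide-rich cells. The female and male sums did not overlap, yet each library was above its own comparison cells (log2 fold change 2.62, SE 0.18, edgeR adjusted p = 3.81e-46). It was present in all 17 *CCAP_1* cells, all 7 *AstC* cells and 19 of the other 40. In other peptide-rich cells it was found in 15.3%.

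The clock gene *tim*, whose *Drosophila* relative timeless is a core part of the circadian oscillator, was also higher in each library. Its levels were 685, 219.8, 822, 338 and 320.4 CPM, in the same order of libraries, against 307, 100.2, 258, 254 and 195.6 CPM. The log2 fold change was 0.96 (SE 0.16, edgeR adjusted p = 5.8e-07). Of the 64 cells 54 had a *tim* UMI, 14 of 17 *CCAP_1* cells, 7 of 7 *AstC* cells and 33 of the other 40, at 326, 729 and 473 CPM.

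Genes of the entry into the endoplasmic reticulum, where precursors begin their passage to the vesicle, formed one of the lists. Of 13 listed and tested, 2 were higher and none lower, and the list median was 0.32 against -0.12 over all genes. *Tapdelta_S1*, a subunit of the complex beside the translocation channel, stood at 526, 788, 470.4, 218 and 529 CPM against 258, 294, 239, 180.1 and 237 CPM (log2 fold change 0.87, SE 0.15, edgeR adjusted p = 4.38e-06). *SsRbeta*, another subunit, was called at 0.51 (SE 0.15) but lost its call when any library but female 1 was left out. *PRDX4*, a peroxiredoxin of the same compartment that is outside the list, was higher by 0.59 (SE 0.16, edgeR adjusted p = 0.0105). Its UMIs were in 6 of 17 *CCAP_1* cells against 33 of the 40 cells outside the first 2 blocks.

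The other named genes that rose in each library were *CYT_S1* (log2 fold change 0.95), *SVIP*, an inhibitor of protein retrotranslocation from the endoplasmic reticulum in mammals (0.63), *cib_S2*, an actin-binding gene (0.58), and *CYT_S3* (0.57). Among genes without a name, evm.TU.CTG-819.1 rose by 2.69 and evm.TU.CTG-227.14 by 2.31 in the edgeR fit. *cib_S2* lost its call without female 1 (edgeR adjusted p = 0.181) or male 2, *SVIP* without female 3 or either male library, and *PRDX4* without female 3.

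**Figure D5:**
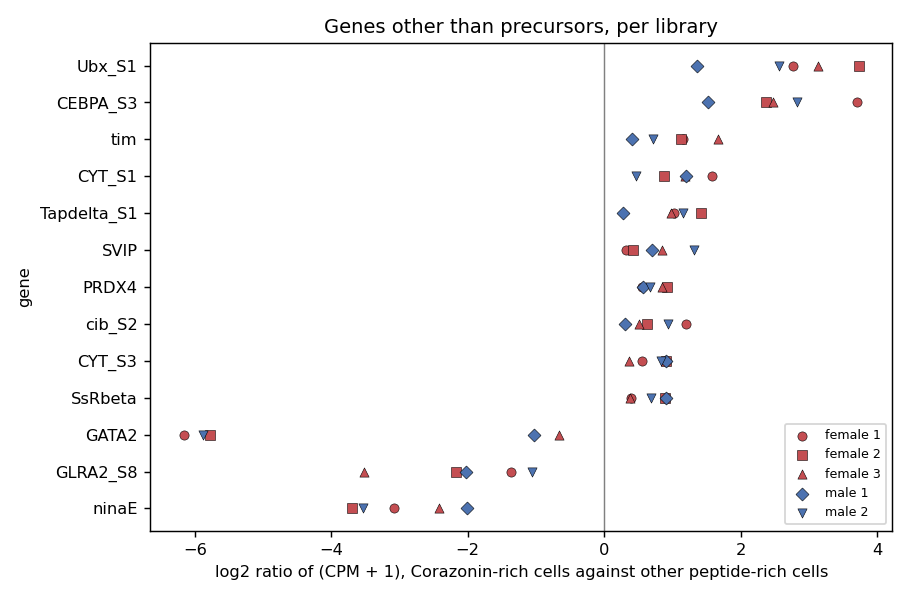
log2 ratio of CPM + 1 in Corazonin-rich cells to other peptide-rich cells of the same library, 1 symbol per library, for the named genes called with 1 direction in all 5. *Ubx_S1* and *CEBPA_S3* are farthest to the right in each library, and *GATA2*, which was at 0 UMIs in 3 libraries, scatters on the left.

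Of 19 genes of vesicle release tested, 5 were lower and none higher, with a list median of -0.37. *Cadps*, which primes dense-core vesicles for fusion, stood at 538, 458, 475, 742 and 240.3 CPM against 911, 718, 840.0, 1036 and 869 CPM (log2 fold change -0.98, SE 0.15, edgeR adjusted p = 4.89e-08). The fusion proteins *SNP25_S2* (-1.31), *VAMP1_S2* (-0.81) and *Snap24* (-0.61) and the recycling ATPase *NSF1* (-0.65) were the others. The calcium sensor *Syt1*, in the neuron list, had a log2 fold change of -0.57 (SE 0.14) and was lower in each library. Without male 2 the count of lower release genes was 3.

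Of 11 excitability genes tested, 5 were lower and none higher, with a list median of -0.60. These were the potassium channel genes *Sh_S3* (-0.74, SE 0.15, edgeR adjusted p = 7.49e-05), *slo_S1* (-0.67) and *slo_S2* (-0.60), the channel subunit *Hk_S2* (-0.70) and the pacemaker channel gene *Ih_S2* (-0.77). *Sh_S3* stood at 636, 641.2, 513, 862 and 929 CPM against 1213, 967, 927, 1103 and 1120.0 CPM. Each library was thus lower than its own comparison cells, though male 2 was just above the lowest of those, in female 3. The count fell to 2 without female 1 or male 2 and to 3 without any other library. Of 9 V-ATPase genes, which acidify vesicles, *Vha68-2* (-0.65) and *Vha26* (-0.61) were lower, a count that was 0 without female 1, female 2 or male 2. The Corazonin-rich cells were deeper than the comparison cells. With comparison cells of like depth, 5 release genes, 3 excitability genes and no V-ATPase gene were called. At a mitochondrial share under 20%, 2 release genes and no excitability gene were called, and with the library left out of the model none of any of these lists.

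Of 18 peptide and amine receptor genes tested, *SPR_S1*, named after the sex peptide receptor, was lower (-0.86, SE 0.24, edgeR adjusted p = 0.0145). Of 10 identity factors none was called, and *foxo*, a transcription factor of insulin signalling, had a value of 0.35. None of 5 transmitter genes was called. When each cell was thinned to 1000 UMIs, 7 of the 8 transmitter genes had no UMI in the 64 cells, a count that leaves room for 4.69%, and *Gad1* had 1 (1.56%). Unthinned, *VAChT* had a UMI in 5 cells (7.81%) against 12.5% of other peptide-rich cells, *Ddc* in 7 (10.9%) against 7.90%, and *Gad1* and *Dbh* in 3 each (4.69%) against 4.23% and 1.90%. *Hml_3*, a hemocyte marker, was called higher by 1.56 (edgeR adjusted p = 0.00878) on 32 UMIs in 8 cells, 28 of them in female 3, while male 1 and male 2 had none.

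Among genes lower in each library, *GLRA2_S8*, named after a glycine receptor subunit, stood at 208, 91.6, 42.8, 109 and 176 CPM against 537, 415, 501, 445 and 369 CPM (log2 fold change -2.18, SE 0.20, edgeR adjusted p = 9.43e-25). Not one library reached the lowest value of the comparison cells. *GATA2* (-1.75) lost its call without female 1 and *ninaE* (-2.79), a rhodopsin gene, without female 3. The sulfotransferase gene *St3* had no UMI in the 64 cells where 104 were expected from the comparison cells, at least 34.8-fold lower with a floor of 3 counts over the group. In the comparison cells, however, *St3* was found in 1.97%, and the fullest 1% of these cells held 99.3% of its UMIs. With 64 Corazonin-rich cells a count of 0 leaves room for 4.69%, so a difference in the share of cells was not detectable at this number. The same holds for evm.TU.CTG-853.11 (2.55% of comparison cells) and evm.TU.CTG-804.9 (2.93%), also at 0. *Lrch*, found in 6.75% of comparison cells, was at 0 with 6.53 expected and lost its call when any 1 library was left out.

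Against all other kept cells, with *Corazonin* alone left out of the sums, 474 of 10282 genes were called (4.61%), 92 higher (0.895%) and 382 lower (3.72%), with a median of -0.20. DESeq2 called 113 higher and 170 lower, and edgeR without the library in the model called 77. *CCAP_1* led with 226745, 151819, 59294, 8.88 and 53241 CPM against 141, 302, 34.7, 6.09 and 2.01 CPM (log2 fold change 10.21, SE 0.32, edgeR adjusted p = 6.25e-213). In male 1 the 2 values were alike, and that library had 1 *CCAP_1* UMI in its 11 Corazonin-rich cells. *Calcitonin_3* stood at 4665, 186960, 1501, 118488 and 1485 CPM against 152, 263, 164, 520.1 and 252 CPM (5.53, SE 0.26, edgeR adjusted p = 2.94e-100). Its levels in female 2 and male 1 rested largely on 3 cells of 6428, 9864 and 12921 UMIs. For *CCAP_1* and *Calcitonin_3* the SE and adjusted p hardly reflect the spread between libraries, which these CPM show to be wide. *CCAP_3* was higher by 2.60 (SE 0.20).

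Without the 17 *CCAP_1* cells, a choice made after seeing the data that also removes female 2 from the fit, *CCAP_3* had a log2 fold change of -0.90 (edgeR adjusted p = 0.0116), the opposite direction, against 2.55 without female 2 alone. *Calcitonin_3* had 4.17 against 4.54, and *CEBPA_S3* 2.45 against 2.94. *CCAP_1* itself is not read from that fit, since its count chose the cells removed.

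In all, 52 of 71 precursors were tested, 9 called higher and 32 lower. The higher ones beyond those 3 were *AstCC* (3.31), *AstC* (2.47), *CCAP_2* (1.91), *Achatin* (1.204), *AstCCC* (1.12) and *RYa_4* (1.03), but none of these 6 was higher in all libraries. *AstC* stood at 29696, 6439 and 3101 CPM in females and 53.3 and 187 CPM in males, against 873, 320.0, 370.1, 392 and 275 CPM, so it was above its comparison cells in females and below them in males. *RYa_4* UMIs were all in female 3, where 1 cell held 228 of the 229. Of 187 *Achatin* UMIs, 1 cell of female 3 held 173.

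Of the 32 lower precursors, 25 were lower in each library. *NPF*, neuropeptide F, had 10 UMIs where 940.1 were expected (log2 fold change -6.52, SE 0.30). *GnRH*, numbered next to *Corazonin*, had 28 UMIs where 596 were expected, at 59.2, 102.4, 36, 26.7 and 0 CPM against 1009, 988, 1004, 904 and 531 CPM (-4.32, SE 0.25, edgeR adjusted p = 5.17e-63). These expectations rest on rare cells, since more than 10 UMIs were found in 0.193% of the other kept cells for *GnRH* and in 0.434% for *NPF*. With 64 cells a difference in the share of such cells was not detectable, although 15 Corazonin-rich cells (23.4%) had a *GnRH* UMI. Of the contig neighbours of *Corazonin*, *CCAP_1* was thus called higher, though its values were alike in male 1. *GnRH* was called lower, with the limit just given. *CHH/ITP_1*, *CCHa_2* and *GPB5_2* were at 0, at least 96.6-fold, 74.97-fold and 3.02-fold lower over the group, but they occurred in only 1.79%, 2.07% and 1.34% of other kept cells. *AT* was called lower (-3.82) although its pooled UMIs, 12320, exceeded the 5987 expected, and 1 cell held 11295 of them.

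Outside the precursors, *CEBPA_S3* was higher by 2.76, *Ubx_S1* by 2.71, *CYT_S1* by 1.26, *Tapdelta_S1* and *tim* by 1.14 each, and *Vkor*, a vitamin K epoxide reductase gene that lost its call without female 1, by 0.86. This comparison shares the Corazonin-rich sums with the one above and is no separate evidence. Vesicle release (8 of 19), excitability (8 of 11) and V-ATPase genes (4 of 9) were lower, and 3 of 13 entry genes were higher. *acj6*, a POU-domain factor, was the only identity factor called (1.07, edgeR adjusted p = 0.0285) and was below its comparison cells in female 2 and female 3. No receptor of 25 tested was called. Leaving out female 1 lowered the release, excitability, V-ATPase and entry counts to 5, 5, 2 and 1. Leaving out male 2 lowered release to 5 and V-ATPase to 1, and leaving out female 3 or male 1 lowered excitability to 5.

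The libraries differ in sex, and the share of Corazonin-rich cells was set against it. They made up 0.394%, 0.147% and 0.325% of kept cells in females and 0.152% and 0.0983% in males, and the groups overlapped. The mean was 0.289% ± 0.128 (SD, n = 3) in females and 0.125% ± 0.0378 (SD, n = 2) in males, with a two-sided exact permutation p of 0.4, where 3 libraries against 2 cannot give less than 0.2. The difference of 0.164 points became 0.205 at more than 50 *Corazonin* UMIs, 0.0983 at more than 200, 0.332 at a mitochondrial share under 20%, 0.174 without doublet calls and 0.256 for cells with at least 1% *Corazonin*, each with an exact permutation p of 0.2. Over all kept cells, *Corazonin* stood at 446, 477 and 297 CPM in females and 113 and 119 CPM in males. The groups did not overlap, with a difference in log2(CPM + 1) of 1.77 and an exact permutation p of 0.2, the smallest possible. Without the *CCAP_1* block the difference in shares was 0.0525 percentage points (exact permutation p = 0.6). Fewer such cells in the brain and a poorer recovery of them cannot be told apart, and less RNA per cell would also lower both measures.

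Few genes differed between female and male Corazonin-rich cells. Of 1795 tested with edgeR, 4 were called (0.223%), 1 higher in females (0.0557%) and 3 lower (0.167%), with 78 at an unadjusted p under 0.05. *ENOX2_S2*, named after a cell-surface oxidase, stood at 862, 501 and 1016 CPM in females and 107 and 100.9 CPM in males (log2 fold change 3.27, SE 0.46, edgeR adjusted p = 0.00399). Other kept cells of the same libraries had 965, 616 and 929 CPM and 145 and 117 CPM. Its fold change without male 1 or male 2 was 3.37 or 3.28, with edgeR adjusted p-values of 0.421 and 0.253.

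The 3 genes higher in males carry no name, and the last of them is named after its values were seen. Of evm.TU.CTG-1481.6, at 0, 0 and 8 CPM in females and 453.1 and 1067 CPM in males, 1 cell held 73 of 127 UMIs. Of evm.TU.CTG-201.4, at 0, 0 and 8 CPM against 1635 and 129.8 CPM, 1 cell held 142 of 195 UMIs, and its call was lost without female 2 or female 3. The last was evm.TU.CTG-256.37 (log2 fold change -3.58, edgeR adjusted p = 0.00382), with UMIs in 13 cells and 52 of them in 1 cell. In other kept cells evm.TU.CTG-1481.6 stood at 136, 113 and 198 CPM in females and 381 and 428 CPM in males. There the sexes overlapped for evm.TU.CTG-201.4, at 207, 168 and 360 CPM against 439 and 216 CPM. For evm.TU.CTG-256.37 the values were 752, 779 and 606 CPM against 1036 and 1111 CPM. No precursor of 23 tested was called by edgeR, and 1 was by DESeq2 or by edgeR without any 1 library other than female 2. *AstC* came nearest to a call among those named for the blocks (log2 fold change 7.26, SE 1.48, edgeR adjusted p = 0.0968), and its high cells were those of the first 2 blocks.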

How the data were processed

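Brains were measured by 10x Chromium 3' v3 single-cell RNA-seq in 5 libraries, grouped by the sex in the labels. The deposited matrices hold raw UMI counts per gene and barcode, which the authors made with Cell Ranger 4.0.0 against their own genome assembly and gene models, with no further filter. The 19195 genes were named from the study's supplementary annotation. Cells, genes and lists were chosen with earlier results of these data known. Kept cells met the limits given above, and doublets were the cells with the highest Scrublet scores (scanpy 1.11.5) at an assumed rate of 0.8% per 1000 barcodes.

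UMIs were summed per library and cell set and tested with edgeR 4.0.16 (filterByExpr, TMM, quasi-likelihood, Benjamini-Hochberg adjusted p under 0.05, library as block) in R 4.3.3, and with DESeq2 1.42.0 as an alternative. Both sums of a library come from the same brains, and their deviations correlated in each of 5 pairs (0.28 to 0.48 against all other cells, 0.30 to 0.51 against peptide-rich cells). The sex comparison had no block. On simulated data the peptide comparison recovered 38% of genes changed by 1 and 71% of genes changed by 2 on the log2 scale, and the sex comparison 8% and 32%. Named were the listed genes and, among genes called with 1 direction in all libraries, the 10 higher and 5 lower named genes and the 2 higher and 2 lower unnamed genes of largest change. Other thresholds, limits, comparison cells and left-out libraries were alternatives. Intervals are exact (Clopper-Pearson, 95%). Per-library totals ran from 12269605 to 35943668 UMIs.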

Additional observations from a re-analysis of the deposited data

Results flagged for a closer look

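A barcode of male 1 that lay outside the limits on cells, with 61021 UMIs against a maximum of 60000, carried 168 *Corazonin* UMIs, a signal in data that no comparison used. It had 3165 genes, a mitochondrial share of 3.53%, 30781 *Calcitonin_3* UMIs, 11211 *CCAP_3* UMIs and 1631 *PK_2* UMIs. A kept Corazonin-rich cell of the same library had 12921 *Calcitonin_3* UMIs, 3325 *CCAP_3* UMIs and 281 *Corazonin* UMIs.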

How the results depend on the processing

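The 202 genes that differed from other peptide-rich cells became 63 at more than 200 *Corazonin* UMIs (54 shared, 6 sums, since the male libraries had under 5 such cells), 88 at a mitochondrial share under 20%, 91 with DESeq2 (69 shared), 115 with comparison cells of like depth and 25 with no library block. Leaving out 1 library gave 120 to 176, with 120 without female 1 and 121 without female 3. The 474 genes against all other kept cells became 218, 249, 283, 294 and 77 under those settings and 316 to 458 without 1 library. The 4 genes between the sexes became 7 at more than 50 *Corazonin* UMIs, 44 with no filter on low counts, 0 with cells thinned to 1000 UMIs, where 129 genes were tested, and 2 to 5 without 1 library (2 without male 1). The female and male libraries share replicate numbers, and nothing in the labels says that these pair them. The correlations of deviations (-0.10 and 1.7e-05) cannot decide this, since the deviations of 2 male libraries mirror each other. A replicate block gave 6 calls. More than 200 UMIs was not run for the sexes. *CCAP_3* reversed against all other cells without the 17 *CCAP_1* cells, to -0.90, and to -0.99 with like depth as well, in fits that also lose female 2. These alternatives, chosen after seeing the data, gave 139, 384, 395 and 6 calls. Over 41 single genes and 602 alternatives, 518 kept direction and side of the threshold, 82 lost the call and 2 reversed, and the causes were not tested. The difference in shares was 0.0983 to 0.332 points over other limits and 0.111 to 0.235 points without 1 library, and that in log2 *Corazonin* CPM was 1.64 to 1.98 without 1 library. The number of Corazonin-rich cells, 7 to 25 a library, limits what could be called.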
